A study of Homo sapiens with 12 samples.

Results

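The genes of 7 leukocyte-attracting chemokines, CCL5, CCL20, CXCL10, CXCL11, CCL2, CXCL16 and CX3CL1, were followed in MV3 cells, an established human melanoma line from a lymph node metastasis. They were taken by exact symbol from the deposited tables, and all 7 were found among 58288 gene identifiers. The cells were exposed for 24 h to fresh RPMI medium (Ctrl) or to macrophage-conditioned RPMI, the macrophages being derived from THP-1, a monocytic line, with 3 libraries per medium and 12 in all. M0 macrophages had been differentiated with PMA, a phorbol ester. M1 macrophages were M0 cells polarized with LPS and IFNγ, and M2 macrophages were M0 cells polarized with IL4 and IL13. All groups shared a pre-incubation of 3 h in medium with 1% serum. Ctrl medium had met no cells, so a comparison with Ctrl includes conditioning itself, and stimulants carried over in the media were not analysed here. MV3 is a single line, and nothing in the labels says that the 3 replicates were separate cultures, so p-values cover only the spread between these libraries, which may be technical. In such bulk RNA, fewer expressing cells and less RNA per cell cannot be told apart.

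Chemokines are small secreted proteins that draw leukocytes along a gradient through G protein-coupled receptors. CCL5 draws T cells, monocytes and eosinophils, CCL2 draws monocytes through CCR2, and CCL20 draws CCR6-bearing lymphocytes and dendritic cells. CXCL10 and CXCL11 are interferon-inducible ligands of CXCR3 on activated T cells and NK cells. CXCL16 and CX3CL1 are made as membrane-anchored ligands of CXCR6 and CX3CR1 and are released by the proteases ADAM10 and ADAM17. Many of these genes are induced through NF-kB, and CXCL10 and CXCL11 also through interferon regulatory factors.

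RefSeq promoters were at hand for only 3 of the 7 members, CXCL10, CXCL11 and CCL20, so CCL5 and the rest are not shown. The CXCL10 window, the 250 bases before the start site at chr4:76023498-76023747 on the minus strand (GRCh38.p14), overlapped no annotated exon. Its capitals mark matches to the core of the interferon-stimulated response element (ISRE), GAAA and GAAA with any 2 bases between them, and to the kappaB consensus, searched on both strands.
CXCL10: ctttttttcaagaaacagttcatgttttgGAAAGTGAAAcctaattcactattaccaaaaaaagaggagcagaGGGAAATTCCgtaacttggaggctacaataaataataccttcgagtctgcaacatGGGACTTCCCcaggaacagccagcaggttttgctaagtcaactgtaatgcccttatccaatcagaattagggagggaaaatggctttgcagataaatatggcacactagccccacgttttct
The ISRE match began 221 bases before the start site and the kappaB matches 177 and 122 bases before it. For CXCL11 and CCL20 only the kappaB match with its flanks is given, because their windows held annotated exon bases.
CXCL11: gactcaaagaGGGAAATTCCtgtgccataa
CCL20: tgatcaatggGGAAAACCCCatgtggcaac
The CXCL11 match, at chr4:76036137-76036146 on the minus strand, began 76 bases before the RefSeq start and holds the same letters as the distal match of CXCL10. The CCL20 match, at chr2:227813763-227813772, began 79 bases before the start and lies on the opposite strand of the gene. A STAT dimer core (GAS), TTCNNNGAA, was matched in CXCL11 at 240 bases before the start and in neither of the other windows. The ISRE core was matched in the CXCL10 window and in neither of the others. Of 35116 RefSeq promoter windows of 250 bases, 3.02% held the ISRE core, 6.57% the GAS core and 9.96% the kappaB consensus. A match describes letters in the window and is not evidence of binding.

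Library totals ran from 21788397 to 42921242 reads, and 14088 genes passed the filter on low counts. The members are weakly expressed: CCL5 and CCL20 passed the filter and the other 5 did not, so those are given as reads. Levels are given as CPM, reads scaled to library size. Log2 fold changes and Benjamini-Hochberg adjusted p-values over all genes tested are from edgeR's quasi-likelihood test, with the standard error (SE) implied by its F statistic. Called means an adjusted p at or under 0.05. M2 replicate 2 stood apart, where 3759 genes had reads in it alone, and such private genes numbered 160 to 453 elsewhere. Of 11 melanoma and melanocyte lineage genes 5 passed the filter: AXL, VIM, CSPG4, MCAM and MITF. AXL had 40568 to 126454 reads per library. Over all libraries VIM had 2947560 reads, CSPG4 25525, MCAM 21403 and MITF 810. PMEL had 18 reads and NGFR 5, SOX10 and MLANA had 1 each, and TYR and S100B had 0.

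CCL5, at chr17:35871491-35880793 on the minus strand (GRCh38), had the larger fold change in M1 of the 2 members tested. Ctrl replicates 1 to 3 held 7, 0 and 5 reads of it. The M0 libraries held 12, 8 and 7, the M1 libraries 388, 364 and 455, and the M2 libraries 10, 16 and 8. Every M1 library lay far above every other library, while M0 and M2 overlapped. The mean was 11.3 ± 1.32 CPM (SD, n = 3) in M1, 0.341 ± 0.0843 in M0, 0.375 ± 0.167 in M2 and 0.105 ± 0.0912 in Ctrl.

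In edgeR's quasi-likelihood test CCL5 was 32.9-fold higher in M1 than in M0 (log2 5.04 ± 0.29 SE, adjusted p = 1.99e-09). It was 30.4-fold higher in M1 than in M2 (log2 4.93 ± 0.27, adjusted p = 1.68e-09) and 96.6-fold higher than in Ctrl (log2 6.59 ± 0.32, adjusted p = 8.08e-11). The order of the levels was therefore M1 above M2, M0 and Ctrl, with M2 and M0 as neighbours that did not differ beyond their spread. Between M2 and M0 the log2 difference was 0.11 with a 95% interval of -0.77 to 0.99 (edgeR adjusted p = 0.882), which does not show equal levels.

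The low end of the CCL5 range was less firm. CCL5 was higher in M0 than in Ctrl by log2 1.55 ± 0.56 (edgeR adjusted p = 0.0246) and higher in M2 than in Ctrl by 1.67 ± 0.53 (adjusted p = 0.0118). The M0 call rested on single libraries and on the fit: it ended without Ctrl replicate 2, the library with 0 reads (log2 1.06, adjusted p = 0.0627), without M0 replicate 1 (0.0966) or 2 (0.0581), and with only both groups in the fit (0.0502). The M2 call ended without M2 replicate 2 (log2 1.27, adjusted p = 0.0697). AC015849.1, an antisense gene across CCL5, shares no exon with it and had 0 to 4 reads per library.

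**Figure D1:**
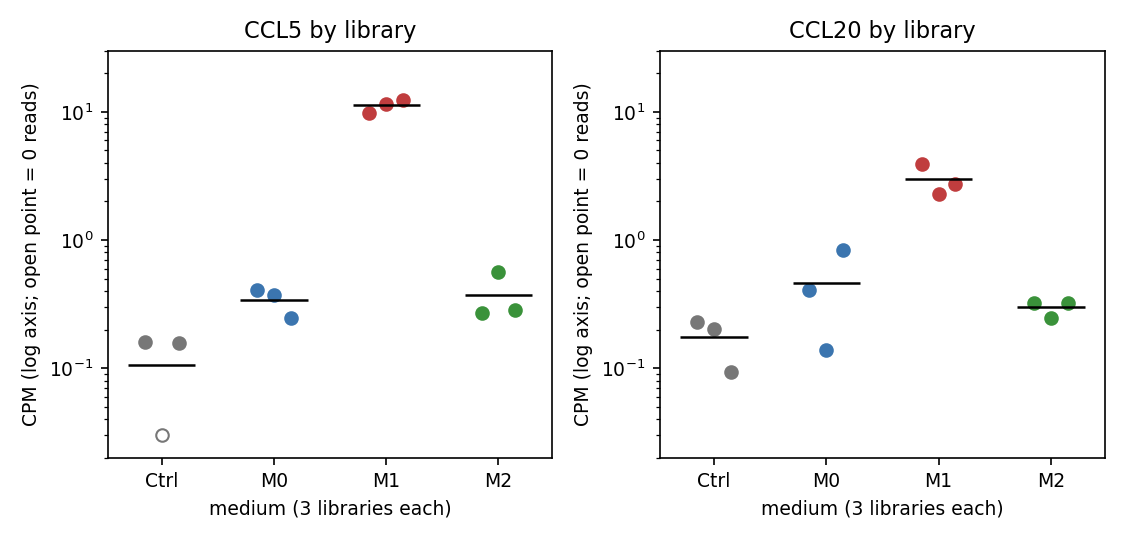
CPM of CCL5 and CCL20 in each of the 12 libraries (points, log axis) with the group mean (line); the open point is a library with 0 reads, placed near the bottom of the axis. All M1 libraries lie above the rest, at 9.83 to 12.4 CPM for CCL5 and 2.27 to 3.93 for CCL20, and M0 spreads widely for CCL20.

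CCL20, at chr2:227805739-227817564 on the plus strand, rose in M1 too, but less and from a more variable M0. Its Ctrl libraries held 10, 6 and 3 reads and its M0 libraries 12, 3 and 24. The M1 libraries held 155, 71 and 101 reads and the M2 libraries 12, 7 and 9. M1 again stood above all other libraries, and M0 overlapped both Ctrl and M2. The mean was 2.98 ± 0.853 CPM in M1, 0.462 ± 0.354 in M0, 0.298 ± 0.0435 in M2 and 0.174 ± 0.0711 in Ctrl (SD, n = 3).

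By edgeR, CCL20 was 6.16-fold higher in M1 than in M0 (log2 2.62 ± 0.35 SE, adjusted p = 2.24e-05). Leaving out M0 replicate 3 gave log2 3.37 (adjusted p = 1.41e-05). It was 9.88-fold higher in M1 than in M2 (SE 0.37 on the log2 scale, adjusted p = 6.83e-06) and 16.4-fold higher than in Ctrl (log2 4.04 ± 0.40, adjusted p = 2.35e-07). M2 differed from M0 by log2 -0.68 (95% interval -1.66 to 0.29, adjusted p = 0.337) and from Ctrl by 0.73 (-0.39 to 1.86, adjusted p = 0.271), and neither passed. M0 was higher than Ctrl by 1.41 ± 0.54 (adjusted p = 0.0322). That call ended without M0 replicate 3 (log2 0.67, adjusted p = 0.331), without Ctrl replicate 1, 2 or 3 (0.0544, 0.0595 and 0.11), with only both groups in the fit (0.0571) and in limma on the deposited log2 values (0.0846).

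Of the 7 members, 2 were called higher in M1 against M0, where 25.5% of the 14088 genes were. The same count was 2 in M1 against M2 (15.9% of genes), 2 in M1 against Ctrl (35.2%), 2 in M0 against Ctrl (31.1%), 1 in M2 against Ctrl (34.1%) and 0 in M2 against M0 (12.5%). With only 2 members tested, these counts say little beyond the genes themselves, and comparisons with M0 or with Ctrl share their control libraries. CCL20 passed the filter only through its M1 libraries, so its being tested already depended on its high M1 level.

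CXCL10 and CXCL11, neighbours on chromosome 4, had reads almost only in M1. CXCL10 (chr4:76021117-76023497, minus strand) had 13, 8 and 11 reads in the M1 libraries, 0, 2 and 0 in the M2 libraries and 0 in each Ctrl and M0 library. CXCL11 (chr4:76033682-76041415, minus strand) had 13, 10 and 12 reads in the M1 libraries, 0, 1 and 0 in the M2 libraries, 0, 1 and 1 in the M0 libraries and 0 in each Ctrl library. No M1 library overlapped any other for either gene, and all M2 reads of both came from M2 replicate 2. That library also held the 3759 genes seen nowhere else, and the part of this in its few reads was not tested.

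Summed over 3 libraries and scaled to library size, the 32 reads of CXCL10 in M1 stood against 0 in M0. With 3 reads put in place of 0, M1 was 7.91-fold higher than M0 and 10.5-fold higher than Ctrl. The CXCL10 ratio of M1 to M2 was 13.9 (exact 95% counting interval 3.54 to 119). CXCL11, with 35 reads in M1, had a ratio of 13 to M0 (3.34 to 111) and of 30.3 to M2 (5.10 to 1230). With 3 reads in place of 0, it was 11.5-fold higher than Ctrl. Folds with 3 reads in place of 0 leave out the counting error of the M1 reads and are not lower limits. The intervals are wide and cover counting error only. ART3, which overlaps both genes on the other strand without a shared exon, had 0 or 1 read per library.

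CCL2, at chr17:34255218-34257203 on the plus strand, had the next most reads. The M1 libraries held 8, 5 and 6 reads of it, the M2 libraries 4, 2 and 1, the M0 libraries 0, 0 and 1, and the Ctrl libraries 0, 1 and 0. M1 lay above all other libraries in CPM, and each M2 library held at least 1 read. The M1 to M0 ratio was 14.1 (exact 95% interval 2.24 to 586) and the M1 to Ctrl ratio 18.7 (2.97 to 777). Between M1 and M2 it was 2.35 with an interval of 0.947 to 6.62, which includes no difference. The M2 to M0 ratio of 5.99 (0.770 to 270) also included it, and the M2 to Ctrl ratio was 7.95 (1.02 to 358). Over libraries, edgeR without the low-count filter did not call CCL2 in M2 against Ctrl (adjusted p = 0.128, 0.0523 to 0.43 over the alternatives).

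The membrane-anchored pair was at the limit of detection. CXCL16 (chr17:4733526-4739922, minus strand) had 6, 8 and 1 reads in the M1 libraries, 1, 3 and 0 in the M2 libraries, 0, 0 and 1 in the M0 libraries and 0, 0 and 2 in the Ctrl libraries, so M1 overlapped the other media. Its M1 to M0 ratio was 11.1 (exact 95% interval 1.71 to 469) and its M1 to M2 ratio 3.25 (1.04 to 13.5), and edgeR without the filter did not call it in M1 against M2 (adjusted p = 0.303, 0.118 to 0.683 over the alternatives). CXCL16 shares 85 exon bases with MED11 on the opposite strand, which had 110 to 266 reads per library, and whether reads were counted by strand is not given in the sources used here. CX3CL1 (chr16:57372458-57385048, plus strand) had 0 reads in all Ctrl and M0 libraries, 2, 0 and 1 in M1 and 0, 3 and 0 in M2. Its M1 to M2 ratio was 0.867 (exact 95% interval 0.116 to 6.47), and no fold is given against the groups at 0, since 3 reads are at the floor. The CX3CL1 reads of M2 again came from replicate 2 alone.

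**Figure D2:**
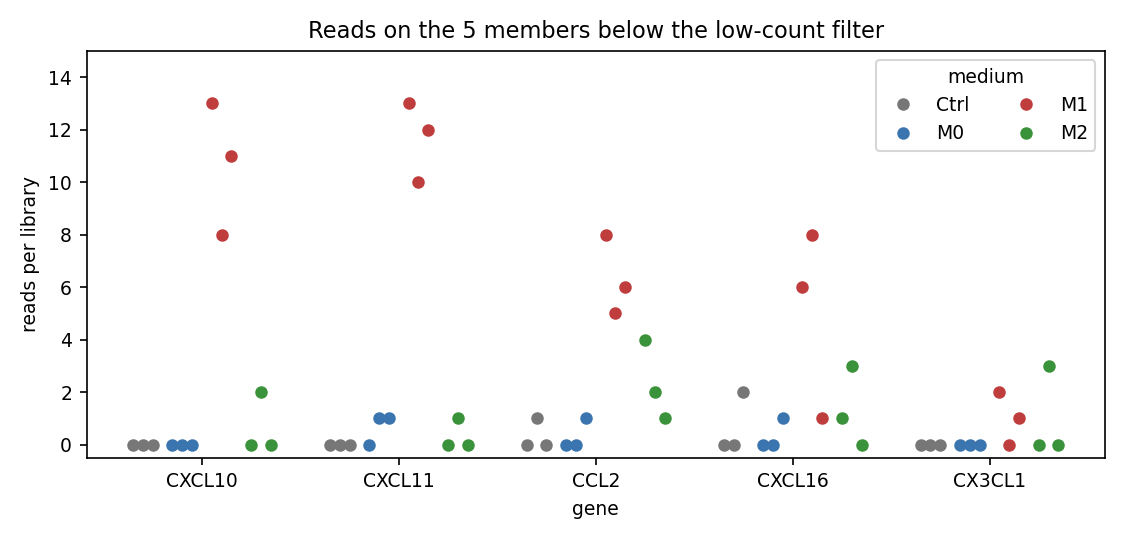
Reads per library (linear axis) of the 5 members below the low-count filter, with 3 points per medium. M1 reaches 8 to 13 reads for CXCL10 and CXCL11 and 5 to 8 for CCL2, while CX3CL1 stays at 0 to 3 reads in each medium.

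Every M1 library exceeded the 9 others in 5 of the 7 members, CCL5, CCL20, CXCL10, CXCL11 and CCL2. The same held for 12.8% of the 14088 genes past the filter. For the 5 members under the filter it held in 3, and for 2.21% of the 7461 genes under the filter with at least 6 reads. That share is not matched in depth, since CXCL10, CXCL11 and CCL2 had 34, 38 and 28 reads over all libraries. The members were also chosen with earlier results of these data known, so the 2 figures do not measure an enrichment. No p is given for this pattern against the 9 others. Between a pair of media, with 3 libraries against 3, an exact permutation test of a single gene cannot give a two-sided p under 0.1. None was run for the low genes. Since CCL20 passed the filter only through M1, its place beside the 12.8% depends partly on the filter.

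When all 32830 genes with a read were tested, 6 of 7 members were called higher in M1 against M0 (11.3% of genes), 4 in M1 against M2 (7.51%) and 6 in M1 against Ctrl (15.6%). These shares include many genes with fewer reads than the members called, so they are not matched to them in depth. CX3CL1 was the member not called in M1 against M0 (edgeR adjusted p = 0.455). The adjusted p for M1 against M0 was 8.37e-06 for CXCL10, 0.000204 for CXCL11, 0.00846 for CCL2 and 0.036 for CXCL16 in edgeR. That fit assigned 1 common quasi-likelihood spread to all genes, and CCL5 itself went from 1.99e-09 to 5.9e-104, so the p-values of the low members from that fit are not set beside those of the filtered fit. DESeq2 without the filter gave adjusted p = 0.0177 for CXCL11 in M1 against M0 and no adjusted p for the other 4. Against Ctrl it gave 0.000973 for CXCL10, 0.000176 for CXCL11, 0.0153 for CCL2 and 0.153 for CXCL16.

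Other chemokine ligands give the scale. Of 38 further ligand genes, 19 had no read in any library, 12 had reads but stayed under the filter, and 7 were tested. In M1 against M0, 6 of these 7 were higher and none lower, where 25.5% of all genes were higher and 26.7% lower, with a median log2 fold change of 1.43 beside -0.01 over all genes. In M2 against M0, 1 was higher and 4 lower (median -0.92), where 12.5% and 12.7% of all genes were (median 0.00). Genes called in M2 against M0 fell from 3553 to 520 with M0 replicate 3 and M2 replicate 2 left out. Counts of lists other than the members were not redone there. In M0 against Ctrl, 4 were higher and 2 lower (median 1.75), where 31.1% and 30.6% of all genes were (median 0.00). CXCL9, the remaining interferon-inducible CXCR3 ligand, had 11 reads in M1, 1 in M2 and 0 in both other media.

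The ligands tested outside the members were mostly neutrophil attractants. CXCL8, the best known of them, stood at 969 ± 147 CPM in M1 and 114 ± 80.5 in M0 (SD, n = 3), higher by log2 3.08 ± 0.35 SE (edgeR adjusted p = 4.54e-06). CCL5 rose more than CXCL8 in that comparison on the log2 scale, from a far lower level, and the difference between both genes was not tested. CCL26, the eotaxin gene known to respond to IL4 and IL13, went the other way, with 76 reads in M2, 3 in M0 and 2 in M1. It was the ligand called higher in M2 than in M0 (log2 4.29 ± 0.57 SE, edgeR adjusted p = 0.000471). CCL26 passed the low-count filter only through M2, with at most 3 reads in any library of the other media. Its count beside the share of all genes therefore depends partly on the filter.

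**Figure D3:**
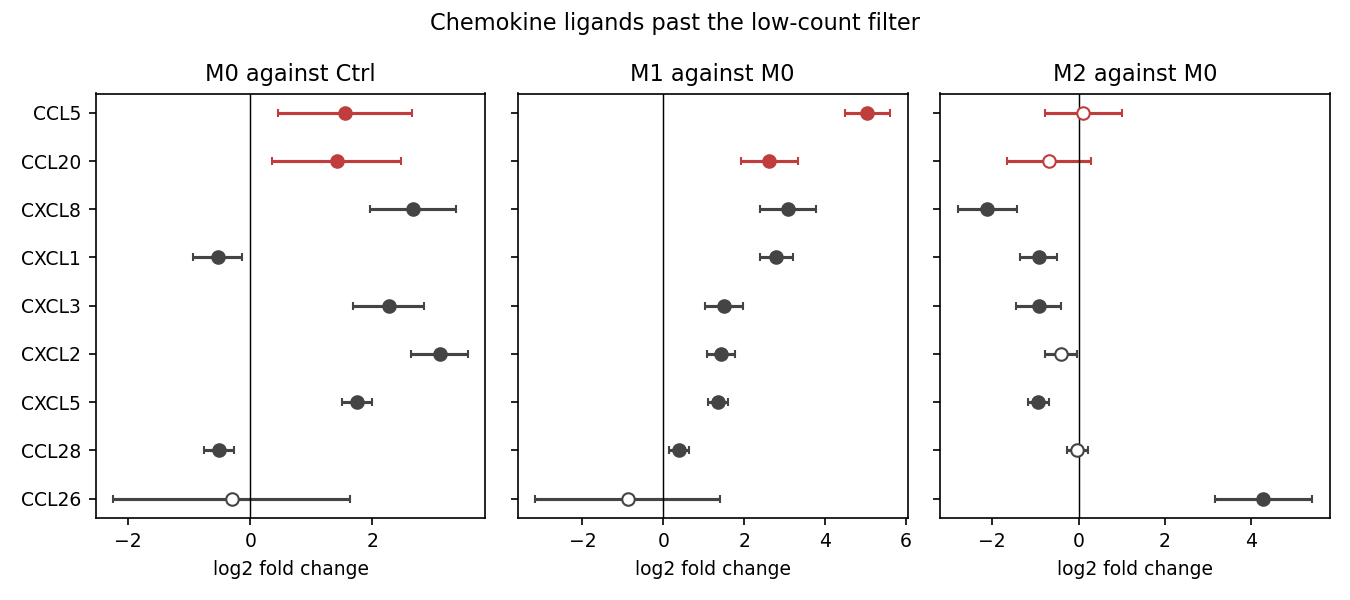
Log2 fold changes (points) with 95% intervals (bars) of the 9 chemokine ligand genes past the filter in 3 comparisons; members are red, and open points did not pass an adjusted p of 0.05. CCL5 has the largest log2 fold change of the 9 in M1 against M0, at 5.04, and CCL26 the largest in M2 against M0, at 4.29. CCL20 passed the filter only through M1 and CCL26 only through M2.

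Levels of different genes were compared per exon length, as RPKM, the CPM divided by the exon length in kilobases. In M1 the mean RPKM was 7.47 for CCL5, 1.87 for CCL20, 0.251 for CXCL10, 0.171 for CXCL11 and 0.0883 for CCL2. The same scale gave 574 for CXCL5 and 426 for CXCL8 in M1. The 7 members together made up 0.714% to 0.969% of the summed RPKM of 45 ligand genes in the M1 libraries, 0.155% to 0.185% in M0, 0.264% to 0.518% in M2 and 0.132% to 0.239% in Ctrl. CXCL5 and CXCL8 held 86.3% to 87.4% in M1. The member share was thus highest in M1 without overlap with the other media, and under 1% in each library.

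**Figure D4:**
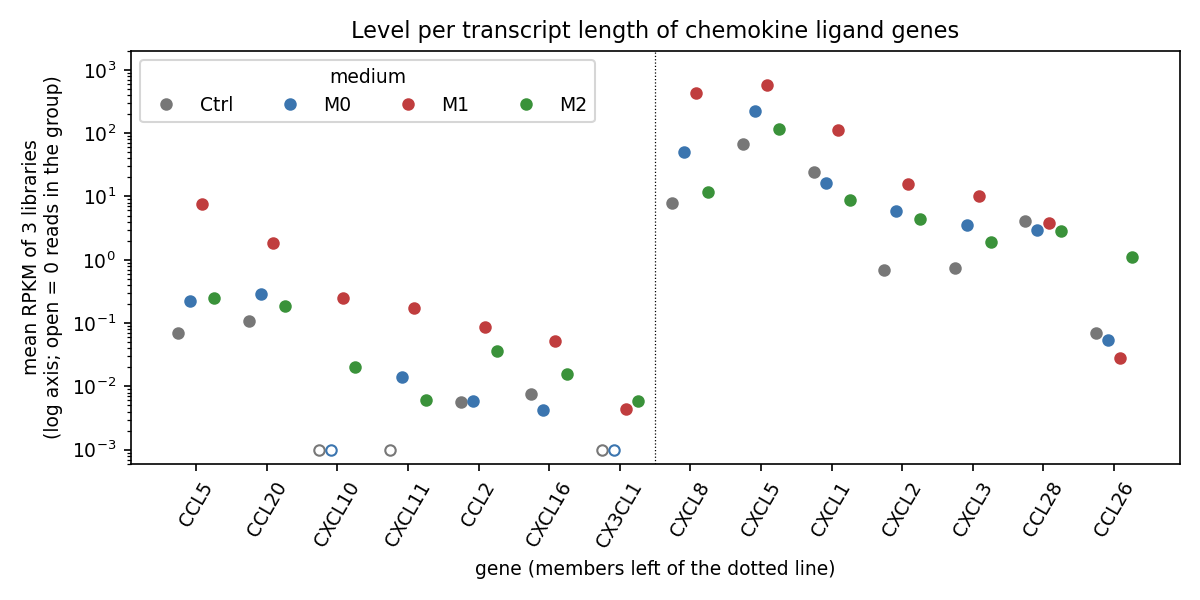
Mean RPKM of 3 libraries per medium (log axis) for the 7 members and 7 other ligand genes; open points are groups with 0 reads. CCL5 in M1, at 7.47, is the highest member value and lies below CXCL5 at 574 and CXCL8 at 426 in the same medium.

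The receptors for the members were not detected beyond scattered reads. Of 8 receptor genes none passed the filter and none had more than 4 reads in a library. CCR1 had the most, with 3 reads in Ctrl, 7 in M0, 4 in M1 and 5 in M2, each summed over 3 libraries. Of 15 other or atypical receptors 2 passed the filter. CCRL2, an atypical receptor that binds chemerin, was lower in M0 than in Ctrl by a log2 fold change of -1.23 ± 0.33 SE (edgeR adjusted p = 0.00437). CCR10, the receptor of CCL27 and CCL28, was higher in M1 than in M0 by 0.96 ± 0.32 (edgeR adjusted p = 0.0204).

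Of 5 genes for proteases that act on the members 4 were tested, and in M1 against M0 2 were higher and 1 lower (median log2 0.04), where 25.5% of all genes were higher and 26.7% lower (median -0.01). ADAM17, the inducible sheddase of CX3CL1 and CXCL16, was higher in M0 than in Ctrl by log2 0.95 ± 0.09 SE (edgeR adjusted p = 3.38e-07), at 114 ± 3.97 against 59.2 ± 9.88 CPM. ADAM10, the constitutive sheddase, was lower in M0 than in Ctrl by -0.44 ± 0.09 (adjusted p = 0.000486) and higher in M1 than in M0 by 0.27 ± 0.09 (adjusted p = 0.0187). MMP3, a matrix protease that can cleave chemokines, was lower in M1 than in M0 by -2.02 ± 0.31 (adjusted p = 6.86e-05). M2 was lower than M0 by nearly the same, -2.04 ± 0.31 (adjusted p = 0.000915). M0 itself was higher than Ctrl by 3.40 ± 0.34 (adjusted p = 4.46e-07), and M1 stayed above Ctrl by 1.39 ± 0.34 (adjusted p = 0.00202). DPP4, which trims CXCL10, CXCL11 and CCL5, had 0 to 4 reads per library.

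Cytokines such as interleukin 1, TNF and the interferons induce these chemokines. Of 12 inducing cytokine genes 2 were tested, IL1A and IL1B, and both were higher in M1 than in M0. IL1B rose by log2 3.37 ± 0.09 SE (edgeR adjusted p = 2.21e-13), from 108 ± 10.2 to 1120 ± 95.1 CPM, and IL1A was 4.6-fold higher (adjusted p = 9.81e-10). TNF had 0 to 2 reads per library, and IFNB1 had 1 read in M1 and 1 in M2. IFNG had no read.

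Among genes for transcription factors of inducible chemokine promoters, with NFKBIA, a feedback inhibitor of NF-kB, counted beside them, 14 of 15 were tested. In M1 against M0, 12 were higher and 1, RELA (named after its value was seen), was lower, where 25.5% and 26.7% of all genes were, with a median log2 fold change of 1.05 beside -0.01 over all genes. IRF9, the DNA-binding part of the ISRE-binding complex, was higher by log2 3.89 ± 0.37 SE (edgeR adjusted p = 7.75e-07), from a low M0 count. It had 10 reads in M0, 2 to 4 per library, and 207 in M1. Against Ctrl, IRF9 in M1 was higher by log2 1.62 ± 0.26 (edgeR adjusted p = 4.1e-05). In M1 against M0, IRF7 was higher by 3.08 ± 0.22 (adjusted p = 3.16e-08) and STAT2 by 2.68 ± 0.11 (adjusted p = 4.38e-11).

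In M0 medium some of these genes already differed from Ctrl. RELB, an NF-kB subunit gene, was higher in M0 than in Ctrl by log2 3.00 ± 0.09 SE (edgeR adjusted p = 6.04e-13), and NFKB2 by 2.23 ± 0.09 (adjusted p = 1.48e-11). IRF9 was lower there, with a log2 fold change of -2.27 ± 0.44 (adjusted p = 0.000347), at 10 reads in M0 and 67 in Ctrl. In all, 7 of the 14 were higher and 5 lower in M0 against Ctrl, where 31.1% and 30.6% of all genes were. In M2 against M0, 3 were higher and 3 lower, where 12.5% and 12.7% of all genes were, with IRF9 the largest at log2 2.22 ± 0.45 (edgeR adjusted p = 0.00343). That IRF9 value rests on the same 10 reads in M0, beside 56 in M2.

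The genes most like CCL5 over the 12 libraries, by Pearson's r of log2 CPM, were FBXO32 (0.984), IFITM1 (0.984) and LAMA3 (0.983). IFITM1, an interferon-induced membrane protein gene, had a mean of 68 CPM in M1 and 0.427 to 0.914 in the other media. For CCL20, ZC3H12C (0.974) and SLAMF8 (0.963) were among the most alike. SLAMF8 had a mean of 7 CPM in M1 and 0.0992 to 0.327 in the other media. CCL5 and CCL20 correlated with each other at 0.889. The 12 libraries form 4 groups of which M1 is set apart, so these values mostly describe the step to M1 and carry no p.

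Because the media came from macrophages, markers of those cells were read in the same libraries. All 12 macrophage and monocyte markers were under the filter, and their summed level ran from 0.431 to 0.763 CPM in M1, 0.419 to 0.641 in M0, 0.357 to 0.567 in M2 and 0.502 to 0.730 in Ctrl. The ranges overlapped between M1 and Ctrl, which had met no macrophage medium. MRC1 had the most, with 55 reads over 12 libraries, then FCER1G with 46 and CD14 with 28, of which CD14 reached 12 in a Ctrl library. AIF1 had no read, TYROBP and SPI1 had 1 read each over 12 libraries, and PTPRC had at most 4 in a library. The T cell genes CD3D, CD3E and CD8A had no read.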

How the data were processed

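Libraries were stranded mRNA, sequenced as single ends of 50 nt, per the labels' protocols. Tools named in the submitters' processing notes are Trimmomatic 0.36, STAR 2.5.4b, Bowtie2 2.2.3, DESeq2 1.20.0 and build hg38. How reads were counted, with which strand setting and annotation release, is not given in the sources used here. Raw read counts per gene were deposited by the authors, and 12 of 12 per-sample files equalled the table's columns. The authors also deposited log2 values, named as variance-stabilized, which were used for symbols and in 1 alternative test.

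Counts of all 12 libraries were fitted in edgeR 4.0.16 (R 4.3.3) with 4 group means and TMM scaling, after filterByExpr (count 10, total 15), by the quasi-likelihood F test and Benjamini-Hochberg adjustment. Log2 CPM for correlations used a prior count of 2. Coordinates, exon lengths and overlaps came from GENCODE 29 on GRCh38 and promoters from RefSeq. A count of 0 allows up to 3 reads, or 0.0685 to 0.14 CPM. Read ratios have exact 95% binomial intervals. Within groups, libraries differed beyond sampling noise (chi-square per degree of freedom 3.18 to 28.1). The test was also run on simulated counts that gave every gene the same spread, so that check does not speak for genes of wider spread. Alternatives used DESeq2 1.42.0 and limma 3.58.1, other scaling, no filter, a replicate block and left-out libraries. The members and lists were chosen with earlier results of these data known. Named genes were the members, list genes among the 4 most changed or with a direct role beside a member, and the 3 genes most correlated with each tested member (mean of at least 1 CPM). Some genes that this rule names are not reported here.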

Additional observations from a re-analysis of the deposited data

How the results depend on the processing

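CCL5 and CCL20 stayed higher in M1 than in M0, M2 and Ctrl, and called, under all alternatives tried, with CCL5 at log2 3.85 to 5.23 and CCL20 at 1.97 to 3.37 in M1 against M0. Their calls in M0 against Ctrl were less stable: of 2 members, 0 were called with only both groups in the fit, 1 in limma on the deposited log2 values, 1 with M0 replicate 3 and M2 replicate 2 left out, and 0 to 1 with single libraries left out. In M2 against Ctrl the 1 call became 0 with that pair left out and 0 to 1 with single libraries left out. Without the filter, members called rose to 6 in M1 against M0, 4 in M1 against M2 and 6 in M1 against Ctrl, since all 7 were then tested. Among these, CXCL16 lost its call in 5 of 9 alternatives against M0 and 6 of 9 against Ctrl, and CCL2 in 1 of 9 against M0, without M0 replicate 1 (adjusted p = 0.0679). These alternatives without the filter were chosen after seeing the data. Genes called over the whole table in M2 against M0 numbered 3553, 1595 to 3906 without single libraries and 520 with M0 replicate 3 and M2 replicate 2 both left out. Among the counts without single libraries the lowest, 1595, came without M0 replicate 3, and 1933 and 1904 without M2 replicate 2 and 3. With the replicate block, the counts were 7453 in M1 against M0 and 3714 in M2 against M0, 2 members were called in M1 against M0, and the block changed no call of CCL5 or CCL20. The labels do not say what the replicate numbers share, and they were not taken as pairing, since not every one of the 18 same-numbered pairs correlated over 0.1 (-0.0775 to 0.154). Of the 18, 12 correlated best with their own number, where equal chances give 6, so a shared source is not excluded. Depth limits CXCL10, CXCL11, CCL2, CXCL16 and CX3CL1, at 13 reads or fewer per library.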
